A study of Mus musculus with 16 samples.

Results

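Imprinted genes are those expressed mainly from 1 parental copy, and 9 of them are described here in mouse muscle: Igf2, Grb10, Plagl1, Peg3, Zim1, Usp29, Zdbf2, Peg10 and Mirg. They were chosen by name, as the genes of a deposited expression table whose Ensembl identifiers map to these symbols. Earlier results of these data were known then, so the presence of all 9 among the 831 genes of that table is not a result. RNA from whole tibialis anterior, a fast muscle of the lower leg, was sequenced from mice at postnatal day 30, in 4 libraries from each of 4 genotypes. The Control mice carried neither mutation by their labels. The miR-133b-/- mice lacked the muscle microRNA miR-133b, the mdx mice carried the mdx mutation of the dystrophin gene and are a model of Duchenne muscular dystrophy, and the mdx/miR-133b-/- mice, called double mutants below, carried both. The labels give no strain or sex. They also leave unsaid whether each library is a separate animal, and p-values therefore reflect only the variation among the libraries, which may be technical. All 4 mature fast fibre markers, Myh4, Actn3, Pvalb and Ckm, were abundant in every library, with summed values from 256312 to 730433 scaled reads.

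Imprinted genes as a class are known for roles in fetal and placental growth. Paternally expressed genes often promote growth and maternally expressed ones often restrain it. Many are strongly expressed in embryonic tissues and fall after birth, and some, Igf2 and Peg3 among them, are known from muscle stem cells and regenerating fibres. In mdx mice fibres break down and regenerate from a few weeks of age, so at this age the muscle holds newly formed fibres, macrophages and fibro-adipogenic progenitors, the matrix-producing cells of the muscle interstitium. The deposited values do not separate parental copies, so all levels below are totals over both. In whole muscle, fewer cells of a type and less RNA per cell cannot be told apart.

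Values are scaled reads: whole read counts per gene that the authors multiplied by 1 factor per library. Unscaled reads summed over the listed genes numbered 2356990 to 6000033 per library, and the total depth of the libraries is unknown. The table is itself a selection. The mean in the double mutants differs from that in miR-133b-/- muscle by at least 1.72-fold, either way, in every gene listed. Of the comparisons below, only mdx against Control uses neither of those groups. Fold changes are differences of mean log2(scaled reads + 1), given with a standard error (SE) from limma, and a gene is called where the Benjamini-Hochberg adjusted p over the 831 genes is under 0.05.

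Peg3, Zim1 and Usp29 are neighbours on chromosome 7 in GRCm38. Peg3 lies at chr7:6703892-6730431 on the minus strand, Zim1 at chr7:6671269-6696450 on the minus strand, and Usp29 at chr7:6730578-6967219 on the plus strand. The annotated starts of Peg3 and Usp29 are 147 bases apart and point away from each other, whereas the start of Zim1 is 33981 bases from that of Peg3. Promoter windows from RefSeq (GRCm38.p6), from 250 bases before to 50 after each start, are shown for this trio because their levels are compared with each other within each library below. The Peg3 window (chr7:6730370-6730669) and the Usp29 window (chr7:6730333-6730632) share 263 bases read from opposite strands, so the Peg3 sequence carries most of both, and Zim1 has a window of its own (chr7:6696383-6696682). Capitals mark GGGGCCCC, a palindrome described as a binding motif of Plagl1.
Peg3: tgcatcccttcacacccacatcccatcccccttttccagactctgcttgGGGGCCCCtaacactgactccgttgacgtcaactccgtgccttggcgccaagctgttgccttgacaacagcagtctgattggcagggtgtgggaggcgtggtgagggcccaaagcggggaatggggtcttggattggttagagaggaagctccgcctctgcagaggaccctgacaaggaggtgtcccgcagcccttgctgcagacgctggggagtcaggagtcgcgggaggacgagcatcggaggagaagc
Zim1: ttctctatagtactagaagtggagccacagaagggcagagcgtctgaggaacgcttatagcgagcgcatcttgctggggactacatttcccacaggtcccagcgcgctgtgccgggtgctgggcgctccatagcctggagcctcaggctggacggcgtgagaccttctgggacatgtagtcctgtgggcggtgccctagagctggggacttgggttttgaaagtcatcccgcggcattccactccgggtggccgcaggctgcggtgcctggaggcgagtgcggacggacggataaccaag
The single GGGGCCCC match falls in the shared stretch and is therefore counted in both windows. This palindrome was present in 1.08% of the 32851 windows of the genome. Over the 13 windows found for 8 of the 9 genes, CCATNTT, the core of the motif of the factor YY1, searched on both strands, occurred in 1 Igf2 window and 1 Grb10 window, against 16.1% of all windows. CAGCTG, an E-box of myogenic factors, occurred in none, against 16.3% of all windows. The windows of Peg3, Usp29 and Zim1 held 13, 17 and 20 CpG pairs, and the median over all windows was 7. No binding or methylation was measured here.

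The microRNA deleted in both null groups pairs with messages through its seed, bases 2 to 8, shown in capitals.
miR-133b-3p: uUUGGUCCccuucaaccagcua
Its complement was found in the annotated 3' UTR of 1 of the 8 coding members, Igf2, at chr7:142652642-142652648 on the minus strand, and is shown with 10 bases on either side.
Igf2 site: cccgccatgaGGACCAAtgactagcca
Of the 778 listed genes with an annotated 3' UTR, 76, or 9.77%, held such a match. The match is a description of sequence and no binding was measured. Apart from those within Mirg, described below, other microRNAs were not searched for the same seed. The Igf2 site is not followed by an A.

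Igf2 encodes insulin-like growth factor 2, a secreted ligand expressed from the paternal copy, and lies at chr7:142650766-142666816 on the minus strand. Its values were 1012, 3330.5, 2046 and 1593 scaled reads in the Control libraries, taken in the order of replicates 1 to 4 as are all values below. They were 1065, 2874, 680.5 and 915 in miR-133b-/-, 5959.8, 6885, 5053 and 6964 in mdx, and 7469.5, 8688, 6139.8 and 4991 in the double mutants. Every library of the mdx and double mutant groups lay above every library of the other 2 groups. Here and for the genes below, such a separation takes in double mutant against miR-133b-/-, the contrast that selected the table. Between mdx and Control alone, 46.2% of the listed genes had all mdx libraries higher. Igf2 rose by 1.76 on the log2 scale in mdx against Control (SE 0.36, limma adjusted p = 0.000549), a 3.38-fold change, from 1995 ± 986 (SD, n = 4) to 6216 ± 899. The 2 dystrophin-sufficient groups were the more scattered, with log2 SDs of 0.72 and 0.90 against 0.22 in mdx and 0.35 in the double mutants. Of its exonic bases, 62.8% are shared with a second annotated model on the same strand, Gm49394, so its counts depend on how the authors assigned such reads.

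Grb10 (chr11:11930508-12038683, minus strand) encodes an adaptor that binds the insulin and IGF receptors and dampens their signalling, and is expressed from the maternal copy in most tissues outside the brain. Its values were 2729, 5325, 4328 and 4347 scaled reads in the Controls, and 4180.0, 4492, 2190.1 and 3127 in the miR-133b-/- libraries. They were 7025, 8343, 6727 and 6118 in mdx, and 6801, 6409.6, 7126 and 5169.5 in the double mutants. All mdx libraries lay above all Control libraries, but the lowest double mutant library lay below the highest Control. Grb10 rose by 0.79 on the log2 scale in mdx against Control (SE 0.23, limma adjusted p = 0.0058), from 4182 ± 1075 (SD, n = 4) to 7053 ± 939, the smallest rise among the members called. It lost its call when libraries were scaled by relative log expression factors, a median-of-ratios scaling, with a difference of 0.43 and an adjusted p of 0.0787. That scaling moved the median difference of all 831 genes from 0.44 to 0.09 in this comparison, and from 0.73 to 0.33 in the double mutants against Control.

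Plagl1 (chr10:13060504-13131694, plus strand) encodes a zinc finger transcription factor, also known as Zac1, that is expressed from the paternal copy. It had 259, 537, 638 and 372 scaled reads in Control, 616, 541, 210.4 and 297 in the miR-133b-/- libraries, 1592, 1466, 867 and 1382 in mdx, and 2026, 1482, 1518 and 807 in the double mutants. The 2 groups without dystrophin did not overlap the 2 groups with it. The rise in mdx against Control was 1.60 on the log2 scale (SE 0.35, limma adjusted p = 0.000844), from 451 ± 169 (SD, n = 4) to 1327 ± 318.

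Peg3, a paternally expressed gene for a large zinc finger protein, had 2289.6, 3071, 3525 and 2467 scaled reads in the Controls, and its miR-133b-/- values were 2330.0, 2840.2, 2029.7 and 2118. It had 5935, 8672, 4899.9 and 6014 in mdx, and 8027, 7430.0, 6188 and 5996 in the double mutants. The lowest library without dystrophin was well above the highest with it. Peg3 rose by 1.16 on the log2 scale in mdx against Control (SE 0.20, limma adjusted p = 0.00012), from 2838 ± 567 (SD, n = 4) to 6380.2 ± 1609.8, a 2.23-fold change. Zim1, its maternally expressed neighbour and also a zinc finger gene, had 472, 639.9, 747 and 493 scaled reads in Control, 390.0, 648, 367 and 425 in the miR-133b-/- libraries, 1425, 1767, 1052 and 1457 in mdx, and 2212, 2212, 2021 and 1668 in the double mutants. Its groups were separated in the same way, and it rose by 1.28 on the log2 scale in mdx (SE 0.21, limma adjusted p = 0.000119), a 2.42-fold change. Usp29, which encodes a ubiquitin-specific protease and is transcribed away from Peg3, had 60 to 193 unscaled reads per library. It had 45.7, 53.7, 58.5 and 63.4 scaled reads in Control, 73.0, 42.8, 44.9 and 43.1 in the miR-133b-/- libraries, 90.2, 118, 61.8 and 64.5 in mdx, and 81.6, 90.1, 96.4 and 120.5 in the double mutants. In mdx, 3 of 4 libraries lay above all Controls, and the difference of 0.55 (SE 0.28) did not pass the test (limma adjusted p = 0.087). It was 0.20 under relative log expression scaling and 0.30 with the trend on GC and length removed. Of its exonic bases, 14.3% overlap the opposite-strand gene Zim3, and whether the authors counted by strand is not given in the sources used here.

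Zdbf2 (chr1:63273265-63314576, plus strand), a paternally expressed zinc finger gene, had 174, 282, 325 and 281 scaled reads in Control, 225, 296, 97.8 and 148 in the miR-133b-/- libraries, 641, 1132, 799.6 and 780.2 in mdx, and 1481, 1051, 1044 and 1092 in the double mutants. Its groups with and without dystrophin were well apart, and it rose by 1.66 on the log2 scale in mdx against Control (SE 0.29, limma adjusted p = 0.000142), from 266 ± 64.3 (SD, n = 4) to 838 ± 208. Peg10 (chr6:4747306-4760517, plus strand), a paternally expressed gene derived from a retrotransposon and needed for the placenta, was low in Control, at 35.0, 82.1, 85.6 and 56.0 scaled reads. It had 66.0, 77.8, 20.6 and 33.2 in miR-133b-/-, 254, 325, 361 and 239 in mdx, and 455, 202, 181 and 179 in the double mutants. Peg10 showed the largest rise of the 9 in mdx against Control, 2.23 on the log2 scale (SE 0.39, limma adjusted p = 0.000161), a 4.70-fold change.

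Mirg (chr12:109729764-109749460, plus strand) is a maternally expressed non-coding RNA of the Dlk1-Dio3 region that carries microRNA genes. It had 188, 575, 560.1 and 446 scaled reads in Control, 155, 549, 76.5 and 232 in the miR-133b-/- libraries, 668, 1297, 493 and 1068 in mdx, and 684, 2074, 805 and 951 in the double mutants. In mdx 3 of 4 libraries lay above all Controls and 1 fell among them. The difference of 1.02 on the log2 scale (SE 0.49) missed the threshold (limma adjusted p = 0.0721). Leaving out 1 library moved it from 0.65 without Control replicate 1 (adjusted p = 0.259) to 1.26 without mdx replicate 3 (0.0412), the 1 of the 8 omissions in which it passed. Relative log expression scaling gave 0.66 (0.212). Mirg spans 14 annotated microRNA hairpins, which give 26 mature forms with 25 distinct seeds in RefSeq (GRCm38.p6). The pair that shares a seed is shown with 1 other, seeds in capitals.
miR-453: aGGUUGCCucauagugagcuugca
miR-496a-5p: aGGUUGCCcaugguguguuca
miR-410-3p: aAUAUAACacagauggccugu
None of the 26 carries the seed of miR-133b. The table gives counts over the host transcript, and the mature microRNAs were not measured here.

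**Figure D1:**
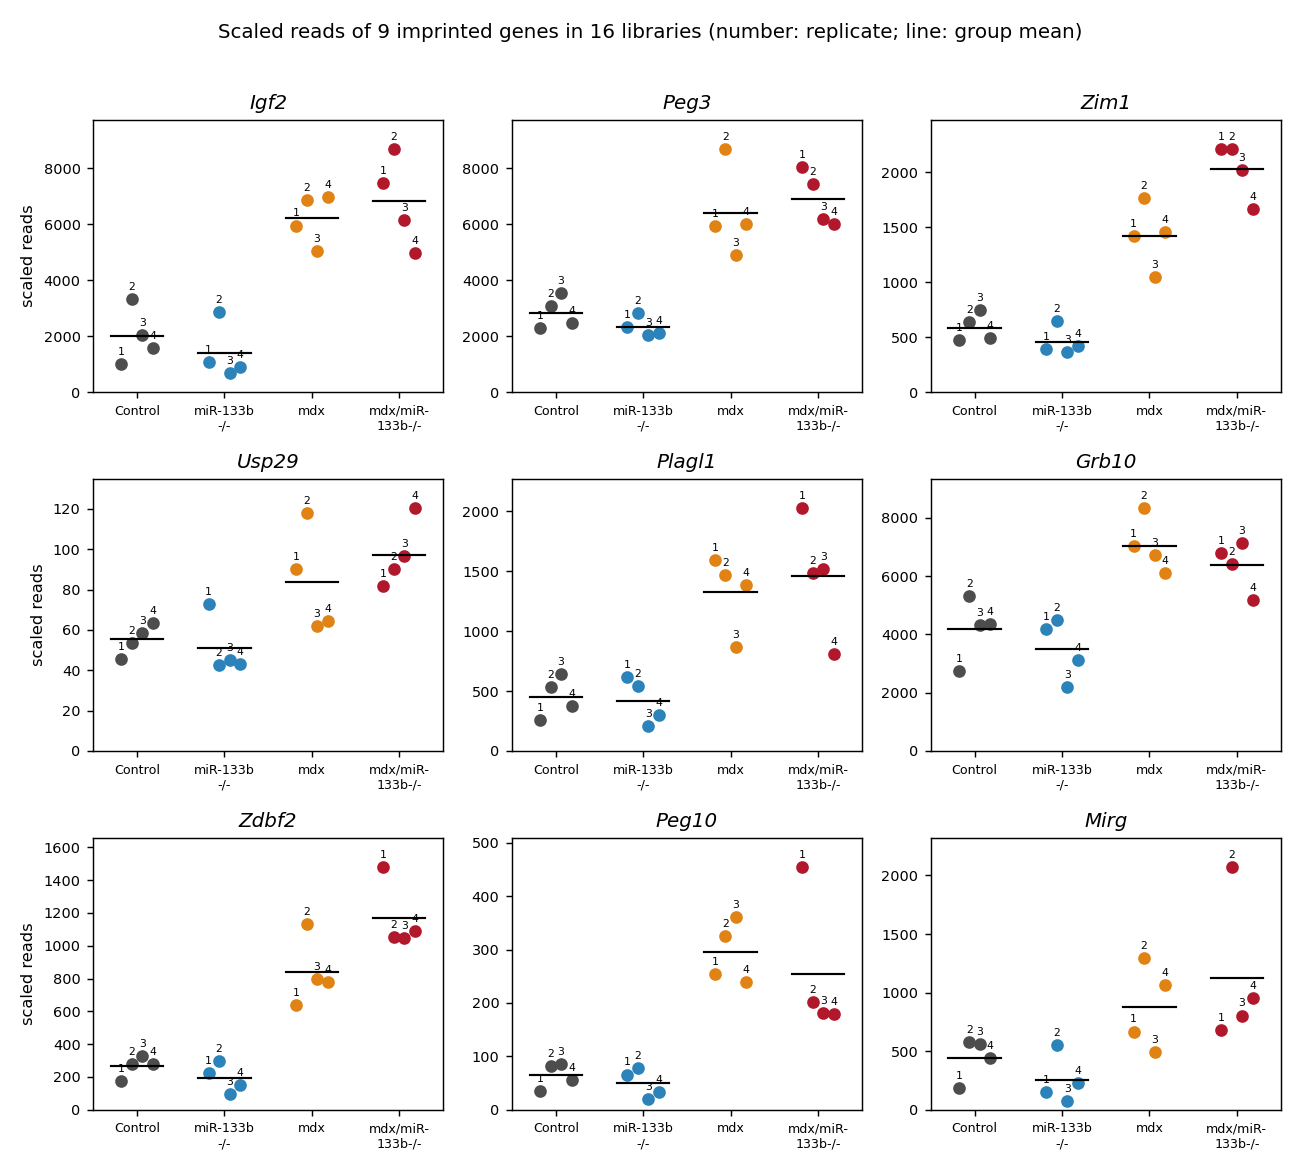
Scaled reads of each of the 9 genes in the 16 libraries, by genotype, on linear axes from 0, with 1 numbered point per library and a line at each group mean. Igf2, Peg3, Zim1, Plagl1, Zdbf2 and Peg10 separate the groups without dystrophin from those with it, while Usp29, Grb10 and Mirg overlap in at least 1 library. This separation takes in double mutant against miR-133b-/-, the contrast that selected the table.

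Over the 9 genes, mdx muscle was higher than Control in each, by a median of 1.28 on the log2 scale against 0.44 over all 831 genes. Of the 9, 7 were called higher, where 44.5% of all listed genes were, and Usp29 and Mirg were not called. All 4 mdx libraries lay above all 4 Controls in the same 7 genes, where 46.2% of the listed genes were placed so. All 9 members entered the table as higher in the double mutants than in miR-133b-/-, whereas the median and shares over all genes include genes listed as lower. Of the 504 listed genes with a difference above 0 in mdx, 370 were called higher, so the count of 7 is no sign of enrichment. None stood at the top of the table: Peg10 ranked 71 of 831 by size of rise, Igf2 115, Zdbf2 123, Plagl1 131, Zim1 198, Peg3 220, Mirg 256, Grb10 321 and Usp29 389. As a share of all reads in the listed genes, the 9 together took 0.4225% in Control, 0.344% in the miR-133b-/- libraries, 1.33% in mdx, and 1.70% in the double mutants. Their summed scaled reads were 10883, 8629, 24499 and 26242 in the same order. From Control to mdx, and again from mdx to the double mutants, the share grew by more than the sum. The total over all listed genes was lower at each of these steps.

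**Figure D2:**
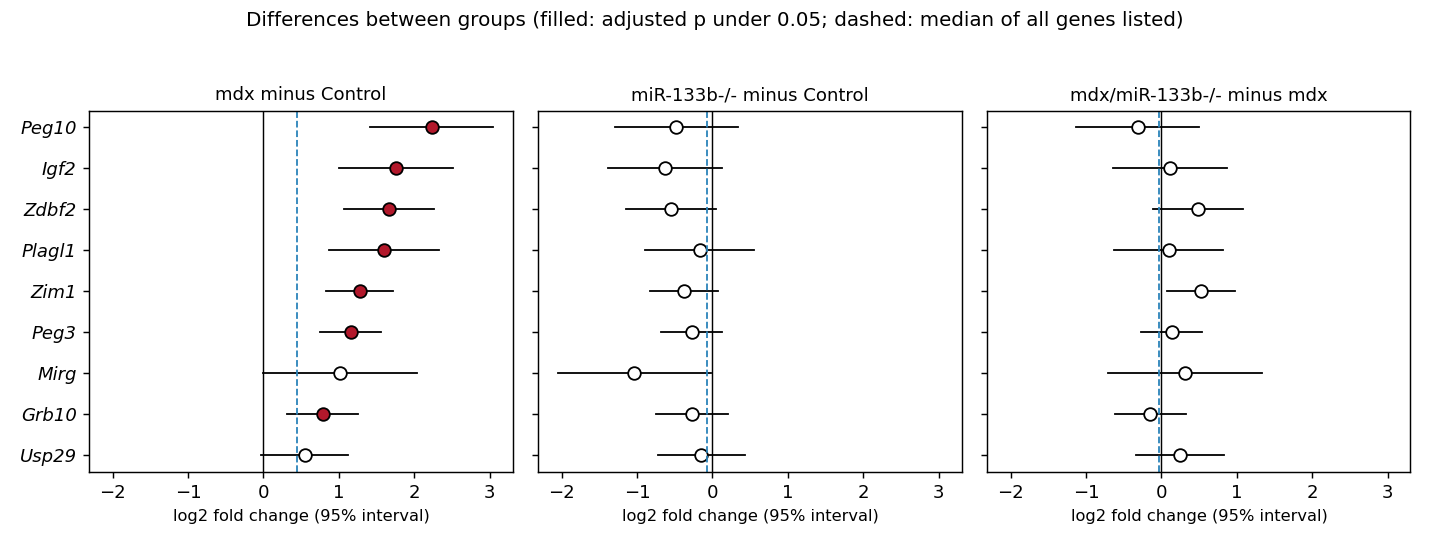
Log2 differences of each gene in 3 comparisons, with limma's 95% intervals. Filled points passed the test, and the dashed line is the median of all listed genes. The members spread from 0.55 to 2.23 in mdx against Control, while intervals in miR-133b-/- against Control and in the double mutants against mdx lie mostly across 0.

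Among the markers that entered the table, those of cells of regenerating muscle rose in mdx, and some of mature fast fibres were called lower. Markers outside the table could not be seen, so the counts below do not describe the full lists. Of all 831 listed genes, 44.5% were called higher in mdx and 180 were called lower. Of 6 listed regenerating fibre markers (Myh3, Myl4, Myog, Mymk, Tnnt2 and Chrng, from a list of 9) all 6 rose in mdx, and their summed value went from 203 to 304 scaled reads in Control to 1659 to 6043 in mdx. Of 9 listed macrophage markers, from a list of 12, 8 were called higher, all but Mrc1 (0.33). The 9 summed to 1375 to 1844 in Control and 5356 to 8227 in mdx. Fibro-adipogenic progenitor markers, 5 of a list of 8, all rose and summed to 11723 to 21604 in Control and 37234 to 39597 in mdx. Flt1, the only listed endothelial marker of 5, fell by 0.75 on the log2 scale. Of the 4 fast fibre markers, 2 were called lower, Ckm by 0.45 and Myh4 by 0.60. Actn3 (-0.52, limma adjusted p = 0.0514) and Pvalb (-0.22) were lower without a call. The list's sum went from 592292 to 730109.7 in Control to 375355 to 552424 in mdx. No marker gene was at 0 throughout a group. The part of these cells in the members' differences was not tested. Within the double mutants, the library with the most Igf2 and the most Mirg (8688 and 2074, replicate 2) had the lowest regenerating fibre sum, 809, and replicate 1, with the highest sum of 7465, had the most Peg3, Plagl1, Peg10 and Zdbf2. Of the 7 satellite cell markers, none is listed.

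**Figure D3:**
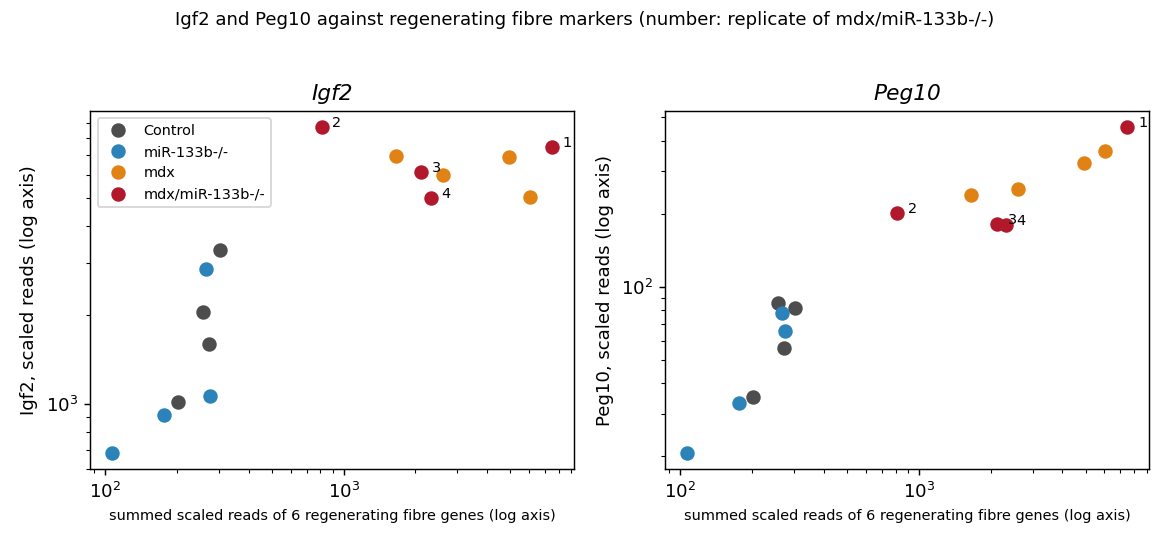
Scaled reads of Igf2 and Peg10 against the summed scaled reads of the 6 regenerating fibre markers, 1 point per library, on log axes. The order of libraries within the double mutants differs between Igf2 and Peg10: replicate 2 is highest for Igf2 at 8688 and replicate 1 for Peg10 at 455.

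Without miR-133b on a dystrophin-sufficient background, no member passed the test. All 9 had lower mean log2 values than in Control, except Usp29 under relative log expression scaling. Differences ran from -0.14 for Usp29 to -1.03 for Mirg, with a median of -0.37 (all genes, -0.07, with 42.7% above 0). Each member entered the table as higher in the double mutants than in miR-133b-/-, so low miR-133b-/- values favoured its listing. The shared direction is therefore not independent of that choice, and the figures over all genes include genes listed as lower. Igf2 differed by -0.63 (95% interval -1.38 to 0.12), Zdbf2 by -0.55, Peg10 by -0.48, Zim1 by -0.37, Peg3 by -0.28, Grb10 by -0.27 and Plagl1 by -0.16. These sizes rested on single libraries: without miR-133b-/- replicate 2 Igf2 stood at -1.06, Mirg at -1.52, Zdbf2 at -0.80 and Peg10 at -0.76. Without miR-133b-/- replicate 3 Mirg stood at -0.58, Zdbf2 at -0.27, Peg10 at -0.13 and Grb10 at -0.065, and without Control replicate 2 Igf2 stood at -0.34. The limma count was 0 of 9, against a background of 0% of 831, and limma-voom on unscaled reads also called 0. At an unadjusted p under 0.05 there were 84 genes, 1 of them a member, Mirg (unadjusted p = 0.047, adjusted p = 0.472). No member was separated between these groups, where 4.69% of listed genes were. Control replicate 1 was the lowest Control in 9 of 9 members, against 30.4% of all genes, and miR-133b-/- replicate 3 was the lowest of its group in 8 of 9, against 31.9%. Fibro-adipogenic and regenerating fibre sums were low in the same libraries. The macrophage and fast fibre sums of Control replicate 1, 1844 and 730110, were instead the highest of the Controls. In miR-133b-/- replicate 3 the macrophage sum, 880, was the lowest of its group, and the fast fibre sum, 618271, was not. The fibro-adipogenic sum was 11723 in Control replicate 1 against 20899.9 to 21604 in the other Controls, and 8835 in miR-133b-/- replicate 3 against 16966 to 20326 in the rest of its group. The regenerating fibre sum was 203 in Control replicate 1 against 257 to 304, and 107 in miR-133b-/- replicate 3 against 176 to 275. Between the groups no regenerating fibre marker was called, and their median difference was -0.60. The part of these cells in the members' values was not tested.

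**Figure D4:**
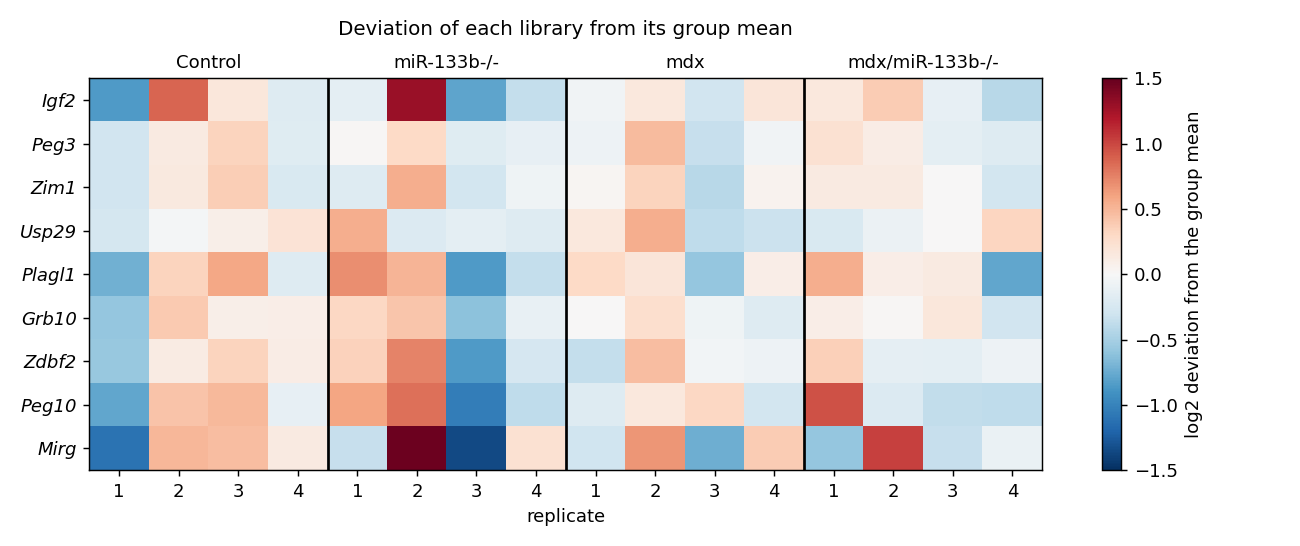
Heat map of the log2 deviation of each library from its group's mean, for the 9 members, with replicates in columns. Control replicate 1 and miR-133b-/- replicate 3 sit below their groups, with median deviations of -0.58 and -0.79.

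Loss of miR-133b on the mdx background gave no call either. Against mdx, the double mutants differed by 0.52 for Zim1 (SE 0.21, unadjusted p = 0.0242, limma adjusted p = 0.0975), 0.49 for Zdbf2, 0.31 for Mirg, 0.25 for Usp29, 0.14 for Peg3, 0.12 for Igf2, 0.10 for Plagl1, -0.15 for Grb10 and -0.31 for Peg10. The 95% interval for Igf2 ran from -0.64 to 0.87. By limma 0 of 9 members were called, and by limma-voom also 0, where 19.5% of listed genes were called, and 1 member, Zim1, had an unadjusted p under 0.05. In 0 of 9 were the groups apart, where 26.6% of listed genes were. Differences in this comparison followed GC content across genes (Spearman rho -0.49). With the trend on GC and length removed, Peg3 stood at -0.20, Usp29 at -0.16, Plagl1 at -0.12 and Zdbf2 at -0.10, opposite in sign to the values above, and Zim1 at 0.065 (limma adjusted p = 0.853). Among the listed markers, 3 of 4 fast fibre genes were called lower in this comparison, all but Myh4 (-0.56). Over all 831 listed genes, 100 were called lower here. No regenerating fibre, macrophage or fibro-adipogenic gene was called. The part of this in the members' values was not tested.

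Against Control, the double mutants were higher in all 9 genes. By limma 9 of 9 were called higher, where 54.3% of listed genes were, and 8 of 9 were separated, all but Grb10, where 44.9% were. The differences were 2.15 for Zdbf2 (SE 0.29, limma adjusted p = 9.3e-06), 1.92 for Peg10, 1.87 for Igf2, 1.80 for Zim1, 1.70 for Plagl1, 1.33 for Mirg, 1.29 for Peg3, 0.80 for Usp29 and 0.64 for Grb10. This comparison shares its Control libraries with mdx against Control, and its double mutants with the choice of the table. All 9 members entered the table as higher in the double mutants than in miR-133b-/-, whereas the shares above include genes listed as lower. Of the 497 listed genes with a difference above 0 here, 451 were called higher, so the count of 9 is no sign of enrichment. The calls of Usp29, Grb10 and Mirg were lost under relative log expression scaling, at 0.40, 0.24 and 0.93, and those of Usp29 and Grb10 with the GC and length trend removed, at 0.14 and 0.40. That correction also lowered Zdbf2 to 1.18, Zim1 to 1.08 and Peg3 to 0.72, all still called, and it put Igf2 first of the 9 at 2.03. Without Control replicate 1, Grb10 (0.45) and Mirg (0.96) were no longer called, and without double mutant replicate 2 Mirg (0.99) was not. Only markers that entered the table could be seen. All 4 fast fibre markers were called lower in this comparison, with a median of -1.12, where 307 of the 831 listed genes were called lower. Called higher were 5 of 6 regenerating fibre markers (all but Myog, at 0.76), 9 of 9 macrophage and 5 of 5 fibro-adipogenic markers. The part of these cells in the members' values was not tested.

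Whether the difference with miR-133b loss differed between the 2 backgrounds was tested with an interaction term. In the main fit it was positive for all 9 members, against 50.8% of all listed genes. Relative log expression scaling turned Grb10 and Peg10 negative, and GC and length correction turned Grb10, Peg10 and Usp29 negative. The term equals double mutant against miR-133b-/-, the contrast that selected the table, less mdx against Control. All 9 members entered the table as higher in that contrast, which favours positive values of the term. The shared sign is therefore not independent of that choice, and the share over all genes includes genes listed as lower. By limma 0 of 9 were called, where 0.963% of listed genes were called. By limma-voom 0 members were called, and 2 had an unadjusted p under 0.05, Zim1 (0.90, SE 0.30, adjusted p = 0.148) and Zdbf2 (1.04, adjusted p = 0.188). Without miR-133b-/- replicate 2, these 2 were called, Zim1 at 1.08 (adjusted p = 0.0298) and Zdbf2 at 1.29 (0.0387). With the GC and length trend removed they stood at 0.46 (adjusted p = 0.416) and 0.43 (0.570). The library left out there, miR-133b-/- replicate 2, had a fast fibre marker sum of 314869, against 618271 to 730433 in the rest of its group. Its regenerating fibre sum, 266, and macrophage sum, 1383, lay within the range of the rest. The part of these cells in the interaction was not tested. The contrast on which the table was selected, double mutant against miR-133b-/-, gave ratios of means from 1.82 for Grb10 to 6.08 for Zdbf2, given as a description only.

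Ratios within a library do not depend on its scaling, so the trio on chromosome 7 could be compared with Peg3 as a reference, here without correction for gene length. Zim1 reads stood at 20.66% ± 0.50 of Peg3 reads in Control libraries (SD, n = 4), and at 19.4% ± 2.64 for miR-133b-/-, 22.5% ± 1.90 for mdx and 29.45% ± 2.35 for the double mutants. The double mutant libraries, 27.55% to 32.7%, lay above the mdx libraries, 20.4% to 24.2%. Usp29 reads stood at 1.99% ± 0.41 of Peg3 in Control, 2.22% ± 0.68 in the miR-133b-/- libraries, 1.30% ± 0.19 in mdx, and 1.45% ± 0.44 in the double mutants. The Control libraries, 1.66% to 2.57%, lay above the mdx libraries, 1.07% to 1.52%. Exact two-sided permutation tests of 4 against 4 can give no p under 0.0286. Both of these differences reached that limit, with log2 differences of 0.39 for Zim1 in double mutants against mdx and -0.61 for Usp29 in mdx against Control, and with an adjusted p of 0.0571 over the 4 ratio tests, short of the threshold. Zim1 in mdx against Control (0.12, exact p = 0.171, adjusted 0.229) and Usp29 in double mutants against mdx (0.11, exact p = 0.714) did not pass. With the GC and length trend removed, Zim1 to Peg3 fell to 0.26 and both adjusted p-values became 0.114. Without mdx replicate 2, 3 of the 4 passed (exact test, adjusted p = 0.0381 for each), all but Usp29 in double mutants against mdx.

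**Figure D5:**
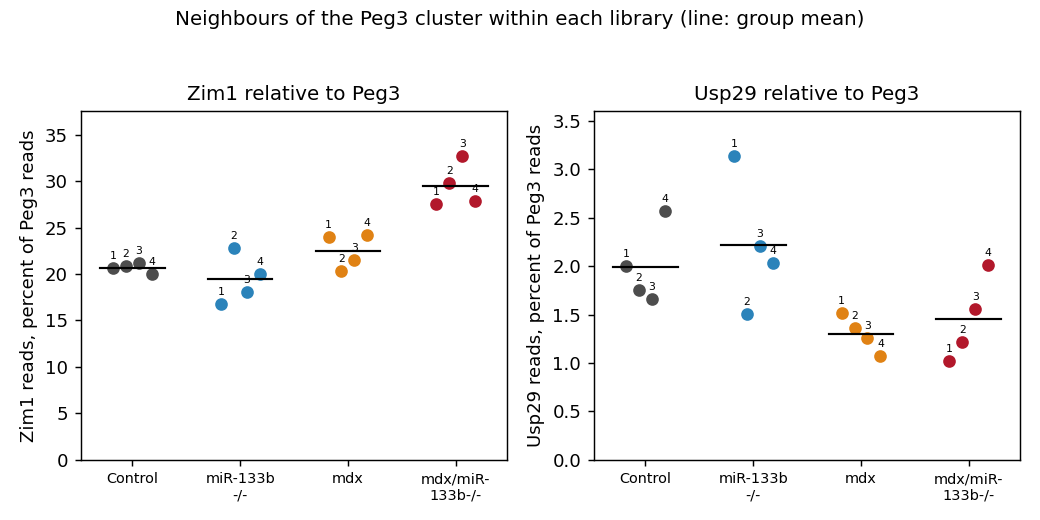
Zim1 and Usp29 reads as a percentage of Peg3 reads in each library, by genotype. Zim1 runs from 20.0% to 21.2% in Control and 27.55% to 32.7% in the double mutants, and Usp29 lies lower in the mdx libraries than in Control.

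In scaled reads per kilobase of exonic length, mean levels in mdx were 1086 for Igf2, 776 for Grb10, 479 for Peg3, 176 for Zim1, 169.7 for Plagl1, 121 for Mirg, 66.2 for Zdbf2, 44.2 for Peg10 and 4.63 for Usp29. In Control, Grb10 was the highest at 460.2 and Igf2 followed at 349. Group means ran miR-133b-/-, Control, mdx, double mutant from lowest to highest in 7 genes, and for Grb10 and Peg10 mdx was above the double mutants. Only the step from Control to the next group was free of overlap, and only in Igf2, Peg3, Zim1, Plagl1, Zdbf2 and Peg10. The order of double mutant and miR-133b-/- means takes in the contrast that selected the table. How many of all listed genes show this order and this step was not counted, so neither can be called particular to these genes. All mdx libraries lay above all Controls in 46.2% of listed genes, and all double mutant libraries did in 44.9%. The 3 listed genes with the pattern most like each member over the 16 libraries were found by the root mean square difference of centred log2 values. For Igf2 these were Zdbf2 (0.38), Zim1 (0.44) and Peg10 (0.45), against a median of 0.98 over all genes. For Zim1 they were Peg3 (0.26), Ubash3b and Tent5a, and for Mirg Igf2 (0.50), Nrk and Fzd2. Peg10 was closest to C1qtnf3 (0.30), Postn and Mymk, Plagl1 to Epha3, Cdh11 and Slc9a9, and Grb10 to Dtx4, Robo1 and Col3a1. Peg3 was closest to Clcn5, Ubash3b and Kcnn3, Zdbf2 to Galnt5, Zim1 and Igf2, and Usp29 to Fndc3b, Notch2 and Arhgap24. These are descriptions, and libraries and genotype are shared by all pairs.

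Of 76 symbols of other imprinted genes sought, 1 is in the table, Ppp1r9a, which encodes the actin-binding protein neurabin and lies near Peg10. It rose by 1.04 in mdx against Control (SE 0.22, limma adjusted p = 0.000589) and by 1.24 in the double mutants against Control. Of 27 genes of IGF and insulin signalling, none is listed, so the receptors and binding proteins of Igf2 were not analysed here.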

How the data were processed

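Whole muscle RNA came from Bio-Rad's Aurum kit, DNase step included, per the labels' protocols. Per the submitters' processing notes, HISAT2 aligned the reads to GRCm38 and HTSeq counted them. Tool versions, annotation and strand setting are not stated in the sources used here. The deposited signal values are counts of reads multiplied by the authors with a single factor for each library (0.459 to 1), as the values show: dividing by it gave whole reads, to within 0.001 read, for 100% of values. All 831 identifiers matched GENCODE M21. Libraries were grouped by title; 14 of 16 description fields name another sample's code. No library pair within a group looked duplicated (chi-square per degree of freedom at least 38.4 in 24 pairs).

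Log2(value + 1) was fitted with limma 3.58.1 in R 4.3.3, with 1 mean per group over 16 libraries, a variance trend and no filter. On simulated data (mdx against Control, 831 genes) changes of 1.5, 2 and 3-fold were recovered in 32.1%, 71.1% and 93.7%, with 3.87% false calls. Neighbour ratios used exact permutation tests. Alternatives were other scalings, pseudocounts, filters, a replicate block, GC and length correction, limma-voom on unscaled reads and leaving out each library. All 9 members are named, with the 3 genes most like each. Members and lists were chosen with earlier results of these data known. Promoters and microRNAs are from RefSeq (GRCm38.p6).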

Additional observations from a re-analysis of the deposited data

Results flagged for a closer look

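Single libraries stood far from the other 3 of their group in 3 of 44 groups of 4 examined, by the gap to the nearest library as a share of the range, where chance gives about 1 in 20. Usp29 stood at 73.0 scaled reads in miR-133b-/- replicate 1, against 42.8 to 44.9 in the rest (gap share 0.932). Zdbf2 stood at 1481 in mdx/miR-133b-/- replicate 1, against 1044 to 1092 (0.891). Peg10 stood at 455 in the same library, against 179 to 202 (0.917).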

How the results depend on the processing

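Members called numbered 6 to 8 in mdx minus Control and 6 to 9 in mdx/miR-133b-/- minus Control, over all alternatives run, and 0 in miR-133b-/- minus Control and in mdx/miR-133b-/- minus mdx. In mdx minus Control, relative log expression scaling moved the split of calls from 370 higher and 180 lower to 260 and 270, and a minimum mean of 100, which drops Usp29, called 395. Genes called in mdx/miR-133b-/- minus mdx fell from 162 to 55 with GC and length trend removed, also with the replicate block; leaving out 1 library gave 49 to 197, with 49 without mdx/miR-133b-/- replicate 4, 56 without mdx replicate 3, 70 without mdx/miR-133b-/- replicate 3, 71 without mdx replicate 1 and 84 without mdx replicate 4. Interaction calls went from 8 to 14 under relative log expression scaling, 4 at a minimum mean of 100 and 5 with the GC and length trend removed. Leaving out 1 library gave 7 to 110 interaction calls and 0 to 2 interaction members called, with 110 calls and both members without miR-133b-/- replicate 2, and 15 calls without mdx/miR-133b-/- replicate 1. The cause was not tested.

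Over all genes, the deviations of same-numbered libraries correlated from -0.28 to 0.25 in 24 pairs, 2 of them over 0.1, so the numbers were not taken to pair the libraries. Among the members, replicate 2 lay above its group's mean in every group (median deviations 0.33, 0.54, 0.33 and 0.098), and Mirg was highest there in all 4. With the replicate block, Mirg passed in mdx minus Control (1.02, limma adjusted p = 0.0133). It also passed in a fit of those 2 groups (0.0232). Usp29 passed with no variance trend (0.0499). In mdx/miR-133b-/- minus Control, GC and length correction ended the calls of Usp29 (0.14) and Grb10 (0.40).

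Directions turned only in results that were not called. Under relative log expression scaling these were Usp29 in miR-133b-/- minus Control (0.0085) and the interaction of Grb10 (-0.075) and Peg10 (-0.027). With GC and length correction, with or without the block, mdx/miR-133b-/- minus mdx gave Peg3 -0.20, Usp29 -0.16, Plagl1 -0.12 and Zdbf2 -0.10, and the interaction gave Usp29 -0.0089, Grb10 -0.033 and Peg10 -0.11. Leaving out 1 library gave Plagl1 -0.40 to 0.12 in miR-133b-/- minus Control, above 0 without Control replicate 3 (0.029) or miR-133b-/- replicate 3. In mdx/miR-133b-/- minus mdx it gave Plagl1 -0.094 to 0.36, below 0 without mdx replicate 3 or mdx/miR-133b-/- replicate 1 (-0.084), and Igf2 -0.011 to 0.26 and Mirg -0.028 to 0.53, both below 0 without mdx/miR-133b-/- replicate 2. In the interaction it gave Plagl1 -0.020 to 0.52, Grb10 -0.081 to 0.32 and Peg10 -0.18 to 0.44, all below 0 without miR-133b-/- replicate 3, Grb10 also without Control replicate 2 (-0.0042) and Peg10 also without mdx/miR-133b-/- replicate 1 (-0.15).

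Leaving out 1 library moved the Usp29 to Peg3 ratio from -0.69 to -0.48 in mdx minus Control and from -0.059 to 0.27 in mdx/miR-133b-/- minus mdx, the turn being without mdx/miR-133b-/- replicate 4. The Zim1 to Peg3 ratio ran from 0.083 to 0.17 and from 0.34 to 0.42. Without mdx replicate 2, 3 of the 4 ratio tests passed, at -0.63, 0.17 and 0.34 (exact test, adjusted p = 0.0381 for each). The GC and length correction of these ratios was chosen after seeing the data. The planned quasi-likelihood count model was not run, since the deposited values are scaled. Depth limits Usp29 and Peg10 most, with as few as 60 and 28 unscaled reads in a library.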
